A study of Mus musculus with 15 samples.

Results

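Cells of the mouse line HoxB that carried both a RUNX1-ETO fusion and a mutant CSF3R receptor were compared by the order in which the alleles had been introduced. In RUNX1-ETO_FIRST cells (genotype written RUNX1-ETO, then CSF3R-T618I) the fusion came first. In CSF3R_FIRST cells (CSF3R-T618I, then RUNX1-ETO) the receptor came first. These groups were chosen by their labels alone and held 6 of the 15 libraries of the study, 3 a group. The other libraries served as references: EMPTY with control vectors, RUNX1-ETO_ONLY with the fusion and CSF3R_ONLY with CSF3R-T618I, 3 each. All groups were the same line, and Blood is the cell type the labels name. The labels do not state the vectors, the promoters, the interval between the introductions, or whether a group was 1 clone. They also do not say that replicates were separate cultures, so the p-values measure the spread between these libraries, which may be technical. The series describes the alleles as expressed in an order-dependent way, and the comparison asks which genes differed between the orders. The order cannot be told apart from other differences between these cell populations, such as a clone.

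RUNX1-ETO is a fusion transcription factor of acute myeloid leukaemia. It joins the DNA-binding domain of RUNX1, a regulator of blood development, to the corepressor ETO, and it is known for holding back granulocytic differentiation. CSF3R is the receptor for granulocyte colony-stimulating factor, which drives neutrophil production through JAK and STAT signalling, and T618I is a change next to the membrane known to activate the receptor without its ligand. Myeloid progenitors that carry such alleles can differ in what they differentiate toward and in how fast they divide, and the genes below are grouped by those functions.

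The 6 double-allele libraries held 17915973 to 18134564 counts, and 13123 genes were tested. Levels are in CPM, counts scaled to a common library total, and a gene was called at an adjusted p under 0.05 in edgeR's quasi-likelihood test with Benjamini-Hochberg adjustment. By the naming rule, given with the processing, called genes were named only if the libraries of the orders did not overlap. That separation was required in advance and adds no support. Runx1t1, the gene of ETO, was listed at 0 in EMPTY and CSF3R_ONLY and at 381, 538 and 564 CPM with the fusion first and 812, 764 and 559 with the receptor first (adjusted p = 0.0568). Csf3r was at 416, 401 and 441 and 430.2, 396 and 366 CPM (adjusted p = 0.585), and the species of the introduced sequences is not given. RUNX1-ETO_FIRST replicate 1 and CSF3R_FIRST replicate 3, like 1 library each of EMPTY and RUNX1-ETO_ONLY, were low in long transcripts (rho of the deviation from the group with length −0.42 and −0.39 across 12799 genes, which are not independent replicates). Promyelocyte markers (Mpo, Elane, Prtn3 and Ctsg) summed to 15900 to 18200 CPM in the double-allele libraries and mast cell markers to 15500 to 29700 CPM, so markers of myeloid cells were present in all 6. The 4 B cell markers and the 4 T and NK cell markers each summed to at most 0.551 CPM in them, with Pax5, Cd3e and Cd8a at 0 (marker sums are CPM without TMM scaling). The 6 stroma markers summed to 59.6 to 76.8 CPM, with Col1a2, Col3a1, Dcn and Lum at 0 and counts in Col1a1 and Pdgfrb.

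Between the orders 2407 of the 13123 genes differed (18.3%). With the fusion first 948 genes were higher (7.22%) and 1459 lower (11.1%), and among the 633 that differed at least 2-fold (4.82%) 180 were higher (1.37%) and 453 lower (3.45%). The genes that were lower with the fusion first were mostly genes that both double-allele groups had raised over EMPTY. Of the 1459, 943 were above EMPTY in both groups, 262 were past the test above EMPTY only with the receptor first, and 93 were below EMPTY in both. Of the 948 higher genes, 330 were below EMPTY in both groups and 344 were past the test below EMPTY only with the receptor first, while 97 were above EMPTY in both. For comparison, 23.7% of all genes were called above EMPTY and 20.2% below it in RUNX1-ETO_FIRST, and 26.8% and 26.7% in CSF3R_FIRST. The number of higher genes was less stable than that of lower genes: it was 510 without RUNX1-ETO_FIRST replicate 3 and 526 without CSF3R_FIRST replicate 3. With library sizes alone as the scaling, all genes shifted by 0.10 (median log2) and the split became 1842 higher and 1131 lower.

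Across all tested genes and among the reference groups, each library with the fusion first lay closest to RUNX1-ETO_ONLY. Libraries with the receptor first lay about as far from one single-allele group as from the other. The root mean square difference in log2 CPM of the RUNX1-ETO_FIRST libraries was 0.75 ± 0.022 (SD, n = 3) to RUNX1-ETO_ONLY, 1.02 ± 0.0087 to CSF3R_ONLY and 1.23 ± 0.0024 to EMPTY. For the CSF3R_FIRST libraries it was 1.02 ± 0.023, 1.07 ± 0.015 and 1.42 ± 0.0066. A library differed by 0.296 to 0.388 from the mean of the other 2 of its group. It differed by 0.526 to 0.596 from the mean of the other double-allele group, less than from any reference. Counts of called genes ranked the single alleles the same way for RUNX1-ETO_FIRST but the opposite way for CSF3R_FIRST. RUNX1-ETO_FIRST differed from RUNX1-ETO_ONLY in 3454 genes (26.3%) and from CSF3R_ONLY in 5196 (39.6%), and CSF3R_FIRST differed in 6324 (48.2%) and 5895 (44.9%). Against EMPTY the counts were 5768 (44.0%) with the fusion first and 7021 (53.5%) with the receptor first. These comparisons share the reference libraries and so are not independent of each other.

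**Figure D1:**
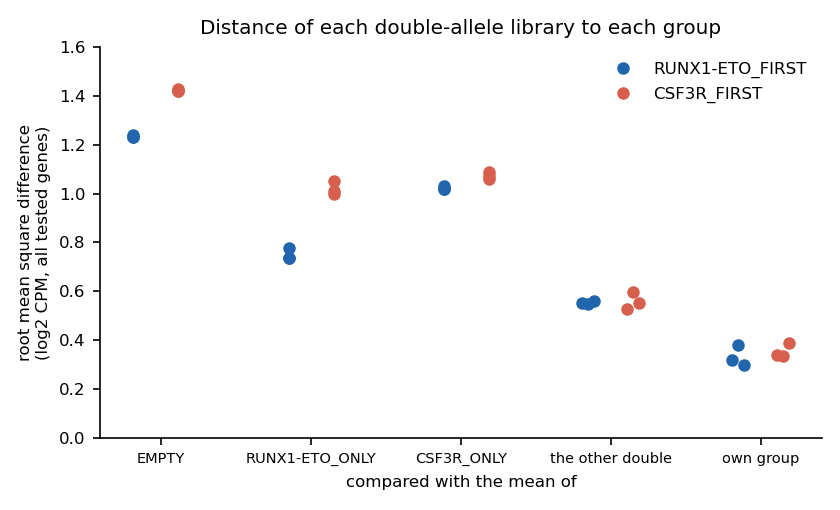
Root mean square difference in log2 CPM over all tested genes between each double-allele library (points, coloured by group) and the mean of each group on the x axis, where a library's own group is the mean of its other 2 libraries. The RUNX1-ETO_FIRST points sit lowest against RUNX1-ETO_ONLY among the references, at 0.736 to 0.776, while the CSF3R_FIRST points sit at 1.0 to 1.05 there and at 1.06 to 1.09 against CSF3R_ONLY.

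The difference between the orders could be set beside the difference between the single alleles, since the 2 comparisons share no library. RUNX1-ETO_ONLY and CSF3R_ONLY differed in 6043 genes (46.0%). Of these, 1685 were also called between the orders (70.0% of the order genes and 27.9% of the single-allele genes), and 1270 of the 1685 (75.4%) had the same sign, where the same sign means that a gene higher with the fusion alone than with the receptor alone was also higher with the fusion first. Of the 2351 genes (17.9%) at least 2-fold apart between the single alleles, 401 were also at least 2-fold apart between the orders, and 315 of these (78.6%) had the same sign. The rest leaned the opposite way. Across all genes the correlation of the 2 differences was 0.31 (Pearson, over 13123 genes, which are not independent replicates).

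**Figure D2:**
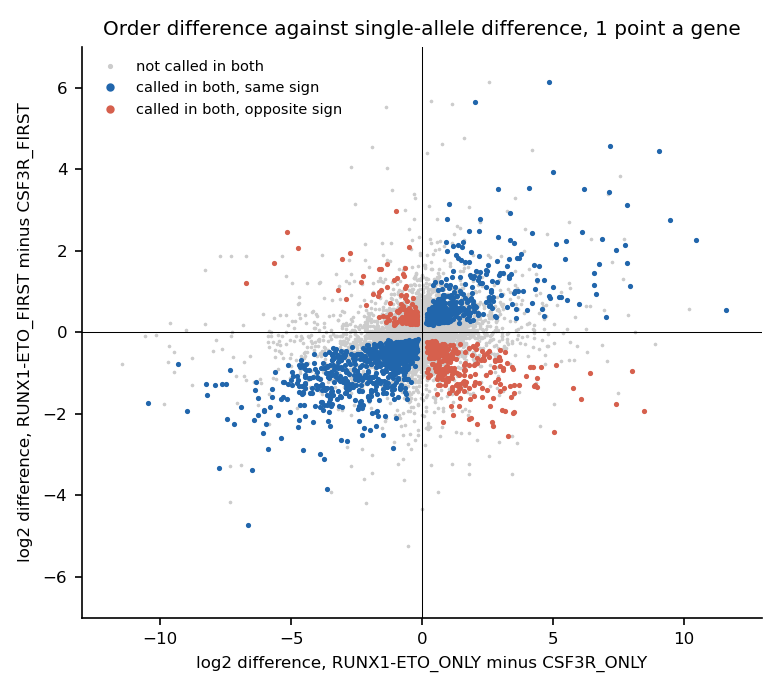
Log2 difference between the orders (y axis, RUNX1-ETO_FIRST minus CSF3R_FIRST) against the log2 difference between the single alleles (x axis, RUNX1-ETO_ONLY minus CSF3R_ONLY), 1 point a gene, with 4 genes outside the axes. Blue points, called in both with the same sign, number 1270, and the lower left quadrant holds 792 of them.

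Among the strongly lower genes, a level above all references was more frequent with the receptor first than a level near either single allele, while the strongly higher genes were spread over several places. Each of the 633 genes at least 2-fold apart was placed in each double-allele group by its mean log2 CPM: near EMPTY, RUNX1-ETO_ONLY or CSF3R_ONLY when within 1.5-fold of that mean, otherwise between the references, above all or below all. Among the 453 lower genes, CSF3R_FIRST was above all references for 289 (63.8%) and RUNX1-ETO_FIRST for 163 (36.0%), and those 163 were above all in both groups. In 58 further genes RUNX1-ETO_FIRST was near CSF3R_ONLY and in 44 near RUNX1-ETO_ONLY while CSF3R_FIRST was above all. Among the 180 higher genes, RUNX1-ETO_FIRST was near RUNX1-ETO_ONLY for 52 (28.9%), above all for 36 (20.0%) and near EMPTY for 33 (18.3%), and CSF3R_FIRST was below all for 48 (26.7%) and near CSF3R_ONLY for 46 (25.6%). By the tests over all order genes, CSF3R_FIRST was above EMPTY and both single-allele groups for 910 of the 1459 lower genes (62.4%, against 12.4% of all genes) and below all of them for 445 of the 948 higher genes (46.9%, against 8.46%). RUNX1-ETO_FIRST was above all for 415 of the 1459 (28.4%) and below all for 96 of the 948 (10.1%). The libraries that chose these genes also placed them, so the shares describe the genes and test nothing.

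Mast cell genes were lower with the fusion first. The list covers granule proteases, the IgE receptor and the enzymes of amine storage, and includes the basophil markers Mcpt8 and Prss34 and the primary granule gene Ctsg. Of its 23 tested members 19 were lower (82.6%) and 0 higher, with a median log2 difference of −0.92 against 0.00 over all genes. The 3 basophil markers (Mcpt8, Prss34 and Cd200r3) were all lower too. They summed to 1330 to 1650 CPM with the fusion first and 2770 to 3250 with the receptor first, so the difference was not particular to mast cell genes. Both orders had raised the list far above EMPTY, by a median log2 of 4.04 with the fusion first and 5.22 with the receptor first, beyond the 3.14 of RUNX1-ETO_ONLY and the 2.52 of CSF3R_ONLY. In bulk RNA, fewer cells of a type and less RNA per cell cannot be told apart. Many of these proteases have close paralogs, and the sources do not say how shared reads were assigned.

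The chymase gene Cma1 (chromosome 14, 55941451 to 55944675, minus strand, mm10) was at 1065, 899.7 and 872 CPM with the fusion first and at 3078, 3319 and 3743 with the receptor first. The groups did not overlap, as the naming rule required, and the difference was 3.57-fold (log2 −1.84, SE 0.149, adjusted p = 6.16e-07). Its mean was 1.79 ± 0.843 CPM (SD, n = 3) in EMPTY, 283 ± 33.2 with the fusion alone and 359 ± 8.08 with the receptor alone, so both orders exceeded either single allele. Fcer1a, the IgE-binding chain of the high-affinity receptor (chromosome 1, 173221284 to 173227214, minus strand), was at 34.8, 33.6 and 30.1 CPM against 89.6, 98.4 and 119.6 (log2 −1.64, SE 0.12, adjusted p = 7.75e-07). Unlike Cma1 it was nearly silent with the fusion alone (0.448 ± 0.0661 CPM) and present with the receptor alone (19.2 ± 2.55). Tph1, which makes the serotonin precursor (chromosome 7, 46644641 to 46672537, minus strand), went the same way, at 124, 127 and 123 against 372, 369 and 382 CPM, 0.5001 ± 0.212 with the fusion alone and 26.9 ± 1.03 with the receptor alone. As the naming rule required, every receptor-first library was above every fusion-first library for both genes. The tryptase Tpsb2, by contrast, was higher with the fusion alone (435 ± 30.6 CPM) than with the receptor alone (37.8 ± 0.544), and it was also lower with the fusion first, at 979, 723 and 789.7 against 2241, 2189 and 2532 CPM. Srgn, the proteoglycan core that packs granule proteases, was at 6814, 5217 and 5689 against 9262, 10270 and 12030 CPM (log2 −0.83) and Kit, the stem cell factor receptor, at 115, 117 and 126 against 236, 204 and 216. Kit differed from the others in lying below EMPTY (331 ± 18.1 CPM) in both orders. Gata2, a transcription factor of mast cells and stem cells, missed the threshold at 1183, 1192 and 1268 against 1522, 1467 and 1307 CPM (log2 −0.24, adjusted p = 0.0575), while Gata1 was 2.09-fold lower, at 70.7, 63.9 and 61.6 against 137, 127 and 146.

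The promoters of 3 of these genes are shown because the members moved together. RUNX factors bind TGTGGT and GATA factors bind AGATAA, and in the windows from 250 bases before to 50 bases after the start (RefSeq, GRCm38.p6) the match on either strand is in capitals. Each of the 3 holds 1 match to TGTGGT or its reverse complement, and Fcer1a also holds 1 to AGATAA. Cma1 spans chr14:55944626-55944925, Fcer1a chr1:173227180-173227479 and Tph1 chr7:46672488-46672787, all on the minus strand.
Cma1: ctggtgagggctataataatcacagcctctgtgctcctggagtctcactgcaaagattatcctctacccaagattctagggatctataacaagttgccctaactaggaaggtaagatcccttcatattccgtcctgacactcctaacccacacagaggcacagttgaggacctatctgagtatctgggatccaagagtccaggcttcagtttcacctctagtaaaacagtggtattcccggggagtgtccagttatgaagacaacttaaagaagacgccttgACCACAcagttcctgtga
Fcer1a: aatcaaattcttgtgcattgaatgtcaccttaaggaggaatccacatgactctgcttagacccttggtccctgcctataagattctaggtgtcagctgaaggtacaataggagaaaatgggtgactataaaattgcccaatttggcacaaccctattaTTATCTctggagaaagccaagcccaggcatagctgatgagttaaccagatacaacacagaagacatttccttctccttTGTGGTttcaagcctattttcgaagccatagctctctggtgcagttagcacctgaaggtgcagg
Tph1: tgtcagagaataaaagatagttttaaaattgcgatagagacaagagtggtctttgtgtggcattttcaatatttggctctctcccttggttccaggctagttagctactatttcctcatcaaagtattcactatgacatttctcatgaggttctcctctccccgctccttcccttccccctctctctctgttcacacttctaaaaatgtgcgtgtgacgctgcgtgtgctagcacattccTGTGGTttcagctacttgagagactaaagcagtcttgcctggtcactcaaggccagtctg
Of the 20 mast cell genes with a promoter in the table, 11 (55.0%) held TGTGGT and 7 (35%) AGATAA, against 12.8% and 6.58% of the 9785 promoters of tested genes. Among all 1130 lower genes with a promoter the shares were 15% and 9.38%. The Cma1 window and the Tph1 window hold no AGATAA. These are matches of letters in short windows and show no binding.

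Neutrophil granule genes were lower with the fusion first as well, and here the single alleles differed sharply. Of 19 secondary and tertiary granule genes 15 were lower (78.9%) and 0 higher, with a median of −0.80. Their median against EMPTY was 2.11 in CSF3R_ONLY, −0.27 in RUNX1-ETO_ONLY, −0.51 with the fusion first and −0.02 with the receptor first, so neither double-allele group kept the level of the receptor alone. Mmp8, neutrophil collagenase, was at 22.7, 23.4 and 24.1 against 79.5, 71.3 and 77.5 CPM (log2 −1.70, SE 0.1, adjusted p = 2.47e-08), between the 11.3 ± 1.46 CPM of the fusion alone and the 159 ± 13.5 of the receptor alone. Itgam, the CD11b integrin chain, was at 9.704, 9.79 and 12.2 against 23.3, 18.5 and 22.6 CPM, below EMPTY (31.5 ± 7.51) in both orders and near the fusion alone (7.27 ± 1.74) with the fusion first. Ltf, lactoferrin, was at 4.15, 2.37 and 2.71 against 5.84, 8.74 and 5.94 CPM, with 48.98 ± 2.47 in CSF3R_ONLY. The groups did not overlap for any of the 3 genes, which the naming rule required.

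S100 proteins and chemotactic receptors followed this pattern, with 10 of 16 lower, 1 higher and a median of −0.54. S100a9, a subunit of calprotectin, was at 108, 89.2 and 82.9 against 214, 278 and 329.7 CPM (log2 −1.55), with 91.6 ± 32.4 in EMPTY and 1216 ± 71.6 in CSF3R_ONLY. C5ar1, the receptor for the complement fragment C5a, was at 2.58, 2.48 and 3.95 against 10.5, 8.74 and 10 CPM. Ccr2, the receptor that brings monocytes out of marrow, was the exception and was higher with the fusion first (38.8, 50.2 and 45.5 against 22.3, 26.3 and 24.7 CPM), although both orders lay below EMPTY (170.2 ± 22.1). Primary granule genes, made earlier in granulocyte differentiation, moved less: 5 of 11 were lower and 0 higher. Among them were Cd63, a granule membrane protein, at 657, 548 and 549 against 1087, 1103 and 1292 CPM, and the protease Ctsg at 2899, 2397 and 2405 against 3484, 3754 and 4162. The myeloperoxidase gene Mpo missed the threshold at 14520, 13050 and 13840 against 13200, 12200 and 11890 CPM (log2 0.15, adjusted p = 0.273), less than its 45080 ± 2693 in EMPTY.

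Stfa2 and Stfa1, paralogs of the cystatin A family of cytosolic protease inhibitors, were lower with the fusion first. They were named by their places and belong to none of the gene lists. Stfa2 was at 58.3, 49.3 and 56.3 CPM with the fusion first, 123, 141 and 176 with the receptor first and 295 ± 36.9 in CSF3R_ONLY, against 5.61 ± 2.73 in EMPTY. Stfa1, a near-identical paralog, was at 103, 86.02 and 80.6 against 166, 179 and 233, with 174 ± 64.3 in EMPTY and 819 ± 17.8 in CSF3R_ONLY. Reads shared among these copies make their split uncertain. By the placement rule Stfa2 lay between the references in both orders. Stfa1 was near RUNX1-ETO_ONLY with the fusion first and near EMPTY with the receptor first.

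Lysosome genes, which encode the acid hydrolases and membrane proteins of the degradative compartment, were lower with the fusion first. Among 29 members tested, 25 were lower (86.2%) and 0 higher, the median was −0.49, and 23 were called lower in every fit that left out 1 double-allele library and with the replicate block, moving less than 1.5-fold (7.33% of all genes did so). The receptor-first group was above EMPTY for 28 of the 29 and the fusion-first group for 21, with medians of 0.87 and 0.40, against 0.43 in CSF3R_ONLY and −0.15 in RUNX1-ETO_ONLY. By root mean square over the list, RUNX1-ETO_FIRST was nearer to CSF3R_ONLY (0.451) than to RUNX1-ETO_ONLY (0.731), the reverse of its place over all genes. Ctsd, the aspartic protease cathepsin D (chromosome 7, 142375911 to 142388038, minus strand), was at 1492, 1270 and 1304 CPM with the fusion first and 2567, 2528 and 2649 with the receptor first (log2 −0.93, SE 0.093, adjusted p = 4.87e-06). EMPTY had 452 ± 53.95, RUNX1-ETO_ONLY 566 ± 39.1 and CSF3R_ONLY 890.3 ± 16.4 CPM, so the 5 groups formed a ladder with the receptor-first group on top. Ctsl, the cysteine protease cathepsin L, was 2.44-fold lower, at 24.9, 23.2 and 24.4 against 51.1, 63.2 and 62.7. Gusb, glucuronidase, was not past the test (log2 −0.05) and Atp6v1b2, a subunit of the proton pump, missed it too (log2 −0.17, adjusted p = 0.0645).

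**Figure D3:**
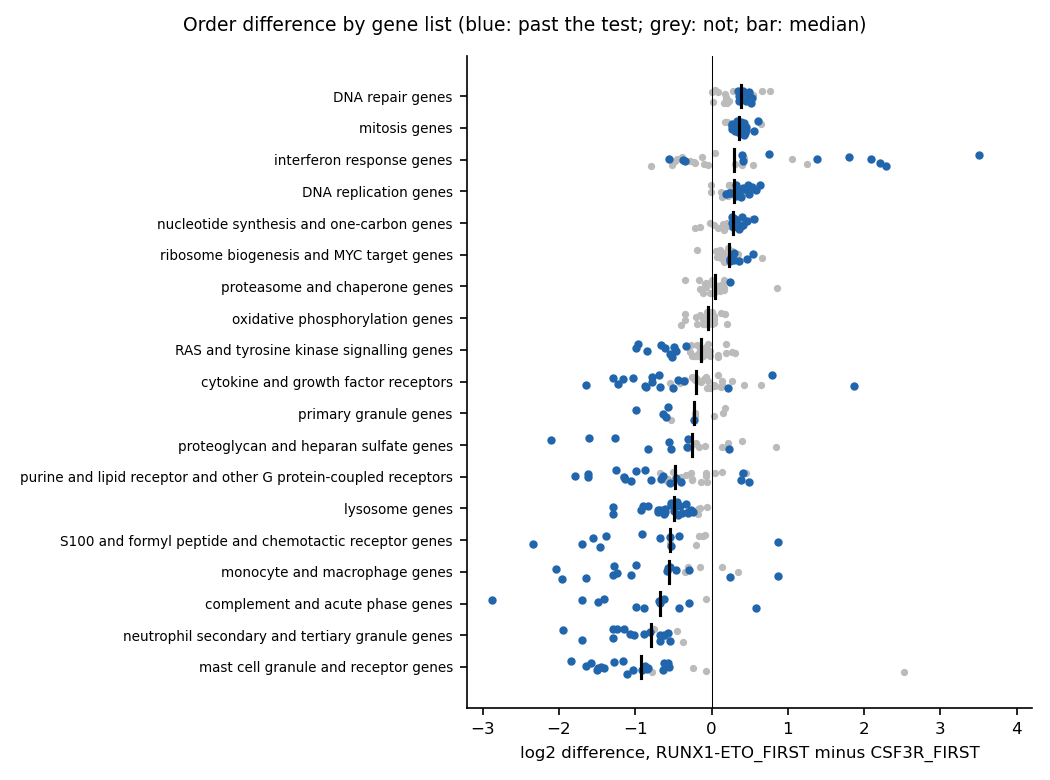
Log2 difference between the orders (x axis, RUNX1-ETO_FIRST minus CSF3R_FIRST) for the tested members of 19 gene lists (rows), 1 point a gene with vertical scatter for legibility, blue where past the test and black bars at the medians. Among the rows shown, mast cell genes have the lowest median, −0.92, and DNA repair and mitosis genes lie to the right at 0.38 and 0.36. Of the 57 lists, some not shown lie further out, such as eosinophil genes (−1.05, 6 tested) and lymphoid genes (0.82, 10 tested).

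Monocyte and macrophage genes were mostly lower, with 13 of 20 lower and 2 higher (median −0.56), or 1 higher without replicate 1 or 3 of RUNX1-ETO_FIRST or replicate 1 or 2 of CSF3R_FIRST. Csf1r, which encodes the M-CSF receptor, was at 9.42, 9.52 and 8.97 CPM with the fusion first, within 1.5-fold of the 9.03 ± 0.627 CPM of the fusion alone, and at 30.4, 28.8 and 27.9 with the receptor first, above the 19.1 ± 1.31 of the receptor alone (log2 −1.64, adjusted p = 1.73e-08). Its ligand Csf1 was also lower, at 475, 527 and 527 against 1057, 1015 and 890.2 CPM, with 21.7 ± 4.04 in EMPTY, 64.5 ± 3.596 with the fusion alone and 361 ± 0.9003 with the receptor alone. Clec7a, the beta-glucan receptor, and Tlr2, a receptor for bacterial lipoproteins, were 2.43-fold and 2.37-fold lower. Adgre1, which encodes the macrophage antigen F4/80, was not past the test at 180.1, 172 and 177 against 204, 193 and 192 CPM (adjusted p = 0.161), and neither was Ly6c2. Of transcription factors of these lineages, Irf8, needed for monocytes and dendritic cells, was higher with the fusion first (18.1, 18.6 and 18.9 against 7.16, 7.68 and 8.003 CPM). It was 23.7 ± 1.32 CPM with the fusion alone and 0.928 ± 0.253 with the receptor alone. Id2, an inhibitor of basic helix-loop-helix factors, went the other way at 63.6, 65.1 and 62.3 against 169.7, 177 and 192, and Klf2 at 25.5, 24.1 and 22.3 against 52.1, 51.02 and 50.1.

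Secreted proteins and their receptors were lower with the fusion first more often than higher. Of 29 cytokines, chemokines and growth factors 10 were lower (34.5%) and 2 higher, and of 43 cytokine and growth factor receptors 14 (32.6%) and 3. The count of higher cytokines was 1 without any 1 double-allele library except RUNX1-ETO_FIRST replicate 2, and that of higher receptors was 1 without RUNX1-ETO_FIRST replicate 3, CSF3R_FIRST replicate 1 or CSF3R_FIRST replicate 2. Il6 was at 75.4, 75.4 and 67.95 against 92.2, 99.8 and 114 CPM, above EMPTY (0.379 ± 0.0886) and either single allele (23.8 ± 3.58 and 7.67 ± 0.449) in both orders. Il1rn, the interleukin 1 receptor antagonist, was 3.01-fold lower, and the decoy receptor Il1r2 was at 17.3, 16.5 and 17.3 against 36.6, 39.5 and 43.7 CPM, far under the 190.2 ± 7.25 of the receptor alone. Il7r, the interleukin 7 receptor chain, was low with the fusion alone (0.894 ± 0.0727 CPM) and at 50.3, 46.3 and 50.8 with the fusion first and 120.3, 120.5 and 119 with the receptor first, the latter above the 28.5 ± 1.005 of the receptor alone. Met, the receptor for hepatocyte growth factor, was one of the 3 higher receptors. It was at 33.9, 50.4 and 43.5 with the fusion first, in the range of EMPTY (34.3 ± 12.2) and the fusion alone (40.98 ± 8.82), and at 12.3, 12.1 and 10.5 with the receptor first, near the receptor alone (9.01 ± 0.383).

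Feedback inhibitors of JAK and STAT signalling did not move as one. Socs3 was lower with the fusion first, at 195, 195 and 196 against 361, 364 and 318 CPM, with 17.6 ± 2.21 in EMPTY. Socs1 was lower too, at 35.5, 30.3 and 29.3 against 53.6, 48.8 and 54.4, with 0.724 ± 0.204 in EMPTY, and both orders exceeded EMPTY for both genes. Socs2 was higher, at 9.87, 9.63 and 7.78 against 3.97, 3.13 and 2.85 CPM, with 3.66 ± 0.994 in EMPTY. Of the whole list of 24 STAT3 and STAT5 feedback and target genes 8 were lower and 3 higher, with Pim1 not past the test (log2 −0.11). Of 21 ERK feedback genes 2 were lower (9.52%) and 1 higher (4.76%), no more than the 11.1% and 7.22% of all genes. These counts depended on the fit. With library sizes alone 2 were lower and 4 higher. Leaving out the 4 libraries poor in long transcripts gave 6 and 3, the replicate block gave 4 and 1, and 0 were higher without any 1 double-allele library except CSF3R_FIRST replicate 2. Egr1, which both orders raised above EMPTY (14.6 ± 2.31 CPM), was at 350.2, 401 and 417 against 346, 343 and 312 (adjusted p = 0.114). Of 37 RAS and tyrosine kinase genes 10 were lower and 0 higher, among them the mast cell exchange factor Rasgrp4 at 38.1, 35.5 and 46.1 against 75.2, 72.5 and 86.7 CPM. Leaving out the 4 libraries poor in long transcripts, 22 were lower and 3 higher. NF-kB genes had 6 of 16 lower and 0 higher, among them Relb (log2 −0.91), while Nfkb1 and Rela were at 0.00 and 0.05.

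Complement and acute phase genes had 11 of 13 members lower with the fusion first (84.6%) and 1 higher, with a median of −0.68. Without any 1 double-allele library except RUNX1-ETO_FIRST replicate 1, 0 were higher. Cd55, which protects cells from complement, was at 194, 182 and 222 against 553, 561 and 558 CPM (log2 −1.49, SE 0.104, adjusted p = 1.60e-07), from 0.0736 ± 0.0841 in EMPTY, 44.5 ± 1.69 with the fusion alone and 21.4 ± 1.76 with the receptor alone. Saa3, serum amyloid, was at 4.94, 3.58 and 3.89 against 27.9, 28.4 and 35.4 CPM, with the receptor-first group near the receptor alone (40.2 ± 1.58) and the fusion-first group between the references (1.704 ± 0.243 with the fusion alone). Clu, the extracellular chaperone clusterin, was at 1.01, 0.9901 and 0.846 against 7.58, 8.27 and 8.79 CPM, with 2.38 ± 0.377 in CSF3R_ONLY, so the receptor-first group was above all references and the fusion-first group between them. In all 3 genes the groups were apart, which the naming rule required.

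Surface receptors and sphingolipid genes were lower with the fusion first more often than higher. Of 36 G protein-coupled receptors 15 were lower (41.7%) and 3 higher (1 without RUNX1-ETO_FIRST replicate 2). P2rx1, an ATP-gated channel listed with the purine receptors, was at 109.8, 105 and 105 against 226, 219 and 219 CPM, above EMPTY (25.2 ± 0.341) in both, and Adora3, an adenosine receptor of mast cells, at 83.3, 71.9 and 81.2 against 148, 130 and 156. Adgre5, an adhesion receptor, was at 97.7, 97.8 and 106 with the fusion first, close to EMPTY (92.5 ± 0.939), and at 250.2, 235 and 233 with the receptor first. Of 18 sphingolipid genes 8 were lower and 0 higher, but 5 with library sizes alone or without CSF3R_FIRST replicate 2. Sphk1, which makes sphingosine 1-phosphate, was at 9.76, 7.7 and 8.18 against 42.4, 43.6 and 39.8 CPM, and Sgpl1, the lyase that breaks it down, was lower as well (50.4, 52.5 and 52.2 against 85.7, 84.8 and 80.4). Sphk2 was not past the test (log2 −0.15). Of 18 eicosanoid synthesis genes 5 were lower and 0 higher, but 2 were lower and 2 higher with library sizes alone. Without RUNX1-ETO_FIRST replicate 3 or CSF3R_FIRST replicate 2 the lower count was 2, and without CSF3R_FIRST replicate 3 it was 3. Ptgs1, cyclooxygenase 1, was 1.51-fold lower, and Alox5, arachidonate 5-lipoxygenase, was at 121, 117 and 117 against 135, 127 and 136 (adjusted p = 0.0798), with 19.2 ± 0.758 in EMPTY.

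Several genes that were low in EMPTY and with either single allele were above all 3 in both double-allele groups, and highest with the receptor first. Penk, the enkephalin precursor, was at 12.8, 8.63 and 9.36 with the fusion first and 57.3, 57.6 and 60.3 with the receptor first, against 0.104 ± 0.0915 CPM with the fusion alone and 0.174 ± 0.117 with the receptor alone. Arg1, arginase of the urea cycle, was at 8.75, 8.305 and 7.84 against 38.1, 39.7 and 47.2 CPM, and the imprinted noncoding RNA H19 at 5.104, 4.46 and 3.44 against 24.9, 22.8 and 25.5. Both were under 1 CPM in each reference group. Igfbp5, an insulin-like growth factor binding protein, was at 0.897, 1.21 and 1.64 against 13.1, 12.1 and 10 CPM, and the carbonic anhydrase Car4 at 0.673, 0.77 and 0.959 against 8.36, 9.03 and 9.64. Gpc4, a cell surface heparan sulfate proteoglycan (chromosome X, 52053021 to 52165252, minus strand), was at 36.5, 38.2 and 39.5 against 169.7, 165 and 157 CPM (log2 −2.10, SE 0.086, adjusted p = 9.83e-10), with 3.28 ± 0.391 and 6.51 ± 0.493 CPM with the fusion and the receptor alone. In each of these genes all 3 receptor-first libraries were above all 3 fusion-first libraries, a separation that the naming rule required. Ly6a, the surface antigen Sca-1, was also above every reference in both orders, at 402, 312 and 271 against 889, 878 and 1065 CPM, with 53.8 ± 3.896 in CSF3R_ONLY.

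**Figure D4:**
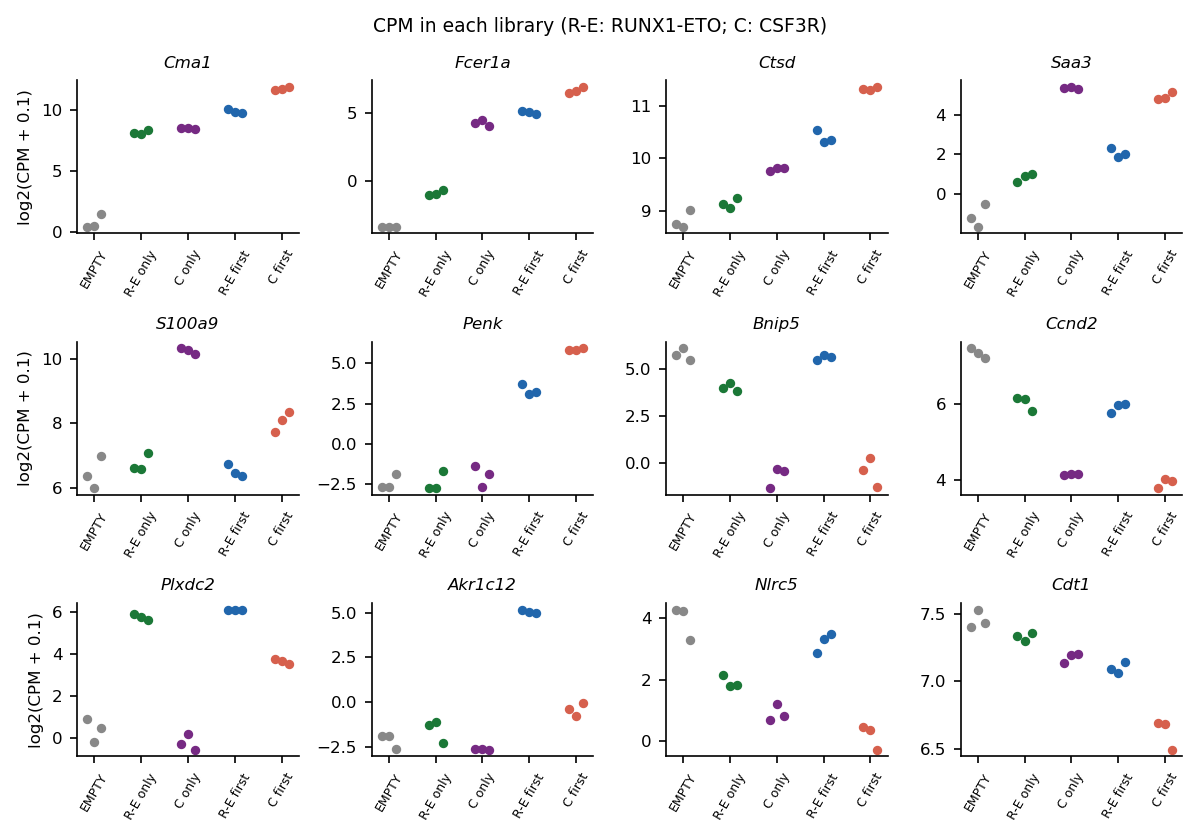
CPM of 12 genes in each library (points, n = 3 a group) on a log2 scale with 0.1 added, by group on the x axis, with a y range of its own for each gene. Penk is high in the double-allele groups alone, Bnip5 and Ccnd2 lie near CSF3R_ONLY with the receptor first, and Akr1c12 is high with the fusion first alone.

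Genes of cell division were higher with the fusion first, by small steps in many genes. Of 30 mitosis genes 24 were higher (80.0%) and 0 lower, with a median of 0.36, and of 40 DNA replication genes 22 (55.0%) and 0, with a median of 0.30. The medians lay below EMPTY in both orders: that of the mitosis list was −0.23 with the fusion first and −0.56 with the receptor first, and that of the replication list −0.34 and −0.64. In RUNX1-ETO_ONLY these medians were −0.07 and −0.04 and in CSF3R_ONLY 0.21 and −0.06. All 30 mitosis genes were called below EMPTY with the receptor first and 15 with the fusion first, and 38 and 30 of the 40 replication genes, of which 1 was above EMPTY in each order. Without RUNX1-ETO_FIRST replicate 2 the count of replication genes higher with the fusion first was 13 and without CSF3R_FIRST replicate 3 it was 14. Across the leave-one-out fits it was 16 to 21 for mitosis genes. With library sizes alone 28 mitosis and 31 replication genes were higher. Leaving out the 4 libraries poor in long transcripts gave 28 and 27, and no filter gave 18 and 15.

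Cdt1, which loads the replicative helicase (chromosome 8, 122568015 to 122573554, plus strand), was at 136, 134 and 141 CPM with the fusion first and at 103, 102 and 90.1 with the receptor first (log2 0.47, SE 0.068, adjusted p = 0.000152), against 175 ± 8.18 in EMPTY, 161 ± 3.51 with the fusion alone and 145 ± 3.72 with the receptor alone. Orc1, a subunit of the origin recognition complex, was at 14.02, 15.6 and 16.1 against 9.63, 9.92 and 10.8 CPM, and Pold1, the catalytic subunit of polymerase delta, at 150.5, 146 and 154 against 108, 114 and 99.4. The groups did not overlap for any of them, which the naming rule required. Foxm1, a transcription factor of the G2 and mitotic genes, was at 123, 112 and 119.6 against 84.95, 86.1 and 70.2 CPM, Bub1b, a spindle checkpoint protein, at 87.4, 99.8 and 93.4 against 68.7, 69.97 and 69.1, and Incenp of the chromosomal passenger complex at 185, 183 and 191 against 146, 134 and 129. Not every proliferation marker passed. Mki67 ran 302, 605 and 516 and 316, 340 and 252 CPM, and its libraries overlapped (adjusted p = 0.182). The 302 came from RUNX1-ETO_FIRST replicate 1 and the 252 from CSF3R_FIRST replicate 3, both low in long transcripts. The other libraries ran 605 and 516 against 316 and 340, and an effect of transcript length on Mki67 was not tested. Pcna was at 154, 154 and 158 against 132, 147 and 145 (adjusted p = 0.299).

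The promoters of Bub1b and Orc1 are shown as examples of the motifs of these lists, the cell cycle homology region TTTGAA of mitotic genes and the E2F letters TTTCNCGC of replication genes, with the match on either strand in capitals. They span chr2:118597961-118598260 and chr4:108579204-108579503, both on the plus strand (RefSeq, GRCm38.p6, windows as above).
Bub1b: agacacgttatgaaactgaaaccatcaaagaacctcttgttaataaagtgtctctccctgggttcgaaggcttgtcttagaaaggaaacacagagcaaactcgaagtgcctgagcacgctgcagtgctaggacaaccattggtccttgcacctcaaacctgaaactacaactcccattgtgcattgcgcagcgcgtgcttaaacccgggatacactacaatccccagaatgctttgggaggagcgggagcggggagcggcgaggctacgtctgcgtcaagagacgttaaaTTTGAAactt
Orc1: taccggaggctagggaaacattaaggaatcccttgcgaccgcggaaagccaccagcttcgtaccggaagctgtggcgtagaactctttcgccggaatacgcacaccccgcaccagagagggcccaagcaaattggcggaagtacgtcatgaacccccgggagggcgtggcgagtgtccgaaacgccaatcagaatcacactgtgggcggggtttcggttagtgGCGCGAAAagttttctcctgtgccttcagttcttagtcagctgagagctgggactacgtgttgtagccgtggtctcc
Of 24 mitosis genes with a promoter 17 (70.8%) held TTTGAA, against 12.2% of the 9785 promoters, and of 33 replication genes 10 (30.3%) held TTTCNCGC, against 4.05%. Among the 734 higher genes with a promoter the shares were 17.8% and 7.49%, and among the 1130 lower genes 10% and 1.5%. Not every named gene held a match. The Cdt1 window holds neither motif, while that of Pold1 holds 1 match to TTTCNCGC.

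Supply and repair genes moved with the cycle genes. Of 26 nucleotide synthesis and one-carbon genes 14 were higher with the fusion first (53.8%) and 0 lower, of 30 DNA repair genes 13 (43.3%) and 0, and of 31 ribosome biogenesis and MYC target genes 7 (22.6%) and 0. These counts depended on single libraries. Without RUNX1-ETO_FIRST replicate 3 they were 7, 4 and 2, without CSF3R_FIRST replicate 3 they were 9, 4 and 2, and without RUNX1-ETO_FIRST replicate 1 the first and last were 9 and 3. Without RUNX1-ETO_FIRST replicate 2 the first and second were 8 and 6, without CSF3R_FIRST replicate 1 they were 7 and 8, and without CSF3R_FIRST replicate 2 the first and last were 9 and 4. Other settings raised the count of ribosome biogenesis genes, to 21 by limma-voom or with library sizes alone, and to 16 when leaving out the 4 libraries poor in long transcripts. Shmt1, a serine hydroxymethyltransferase of the folate cycle, was at 55.4, 56.4 and 52.8 against 37.9, 37.4 and 36.99 CPM (log2 0.55, adjusted p = 3.70e-05), below EMPTY (87.6 ± 5.03) in both. Atic, which closes the purine ring, was at 199.9, 173 and 189.5 against 142, 142 and 146, and the checkpoint kinase Chek1 at 22.8, 20.4 and 21.9 against 15.5, 14.9 and 16.1. Mybbp1a, a nucleolar regulator of ribosomal RNA synthesis, was at 554, 557 and 569.5 against 446, 455 and 414 CPM, and Npm1, nucleophosmin, was not past the test at 984, 973 and 949 against 716, 837 and 926 (adjusted p = 0.113).

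**Figure D5:**
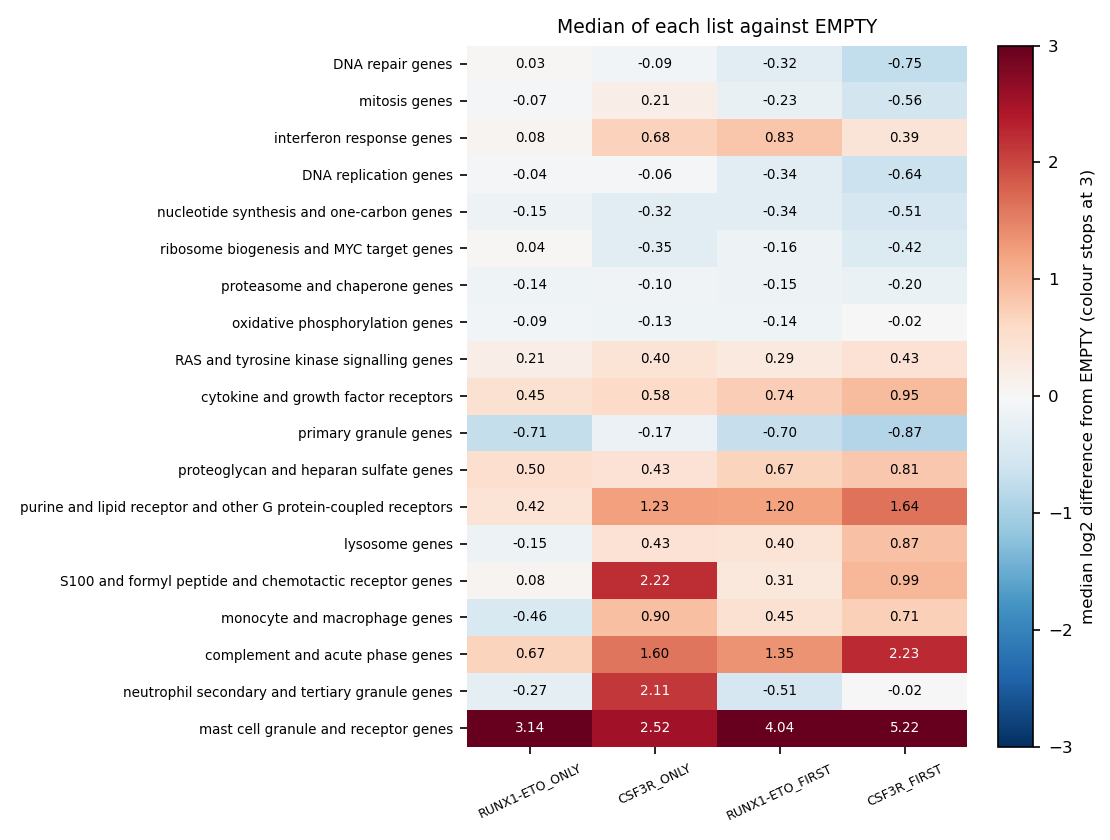
Median log2 difference from EMPTY of the tested members of 19 gene lists (rows) in the 4 other groups (columns), with the value in each cell and colour limited to 3. Mast cell genes rise from 3.14 and 2.52 with a single allele to 4.04 and 5.22 with both, neutrophil granule genes stand at 2.11 only with the receptor alone, and mitosis and replication genes are lowest with the receptor first.

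Of the regulators of G1, Ccnd2, cyclin D2, was higher with the fusion first at 53.6, 62.1 and 62.9 CPM, near the fusion alone (65.1 ± 8.02), against 13.7, 16.1 and 15.5 with the receptor first, near the receptor alone (17.7 ± 0.217). Both were below EMPTY (160.3 ± 13.2). Ccnd3 was not past the test (log2 −0.05) and neither was the inhibitor Cdkn1a, at 535, 446 and 506 against 554, 500.1 and 557 CPM and 175 ± 26.8 in EMPTY. Cdkn2d, a CDK inhibitor of the INK4 family, and Rb1, the retinoblastoma protein gene, were lower with the fusion first (log2 −0.47 and −0.47).

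Several genes that were high with the fusion alone were also higher when the fusion came first. Plxdc2, a membrane protein with a plexin domain, was at 68.8, 68.2 and 69.02 CPM with the fusion first, near the 54.9 ± 5.49 of RUNX1-ETO_ONLY, and at 13.4, 12.6 and 11.3 with the receptor first, while EMPTY and CSF3R_ONLY had 1.27 ± 0.492 and 0.773 ± 0.241. Plxnb2, a semaphorin receptor, was at 32.9, 38.5 and 40.1 against 9.75, 9.92 and 7.88 CPM and 40.4 ± 5.39 with the fusion alone. Tjp1, a scaffold of tight junctions (chromosome 7, 65296165 to 65527781, minus strand), had no counts in EMPTY, 126 ± 22.7 CPM with the fusion alone, 73.5, 104 and 103 with the fusion first and 47.95, 43.3 and 37.4 with the receptor first (log2 1.13, SE 0.183, adjusted p = 0.0007397). Eng, the coreceptor endoglin of TGF-beta ligands, was at 31.8, 29.7 and 33.8 against 15.2, 14.1 and 13.5 CPM, both under the 103 ± 3.96 of the fusion alone. Fyn, a SRC family kinase, was at 11.4, 11.7 and 12.8 against 3.85, 4.13 and 4.61 CPM, with 39.4 ± 1.197 with the fusion alone and 15.6 ± 1.07 in EMPTY. Deptor, an inhibitor of mTOR, was at 16.2, 16.9 and 17.1 against 6.92, 5.49 and 5.52, with 43.4 ± 3.79 and 14.1 ± 0.967. For all 6 genes the fusion-first libraries were above the receptor-first libraries, a separation that the naming rule required. By the placement rule Plxdc2, Plxnb2 and Tjp1 were near the fusion alone with the fusion first and between the references with the receptor first, Eng was between them in both, and Fyn and Deptor were near EMPTY with the fusion first and below all with the receptor first.

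Other genes were near EMPTY with the fusion first and near the receptor alone with the receptor first. Bnip5 was at 43.7, 52.4 and 49.1 CPM against 0.662, 1.06 and 0.303, with 54.3 ± 11.5 in EMPTY, 15.98 ± 2.22 with the fusion alone and 0.5403 ± 0.217 with the receptor alone. In the placement of the 180 higher genes this pair of places held 15 genes, and another 15 were near RUNX1-ETO_ONLY with the fusion first and near CSF3R_ONLY with the receptor first. Nlrc5, the activator of MHC class I genes, was at 7.24, 9.96 and 11.1 against 1.26, 1.18 and 0.728 CPM (log2 3.15, adjusted p = 4.14e-06), between the references with the fusion first and below all with the receptor first, given 15.8 ± 5.305 in EMPTY and 1.797 ± 0.358 in CSF3R_ONLY. Its class I targets H2-K1 and B2m were not past the test, at log2 −0.14 and −0.06 (adjusted p = 0.455 and 0.846), and Tapbp, which loads peptides on class I molecules, was lower with the fusion first (312, 281 and 293 against 400.2, 379 and 365 CPM). Interferon response genes were more often higher than lower in the main fit. Of 31, 10 were higher (32.3%, against 7.22% of all genes) and 3 lower (9.68%, against 11.1%). Without RUNX1-ETO_FIRST replicate 1, 5 were lower. Without the 4 libraries poor in long transcripts 10 were higher and 9 lower, and limma-voom called 13 and 8. Gbp2, a guanylate-binding protein, was at 9.03, 7.32 and 10.1 against 1.86, 1.83 and 2.49 CPM with 0.358 ± 0.0505 in EMPTY, and Irf1 at 31.8, 31.6 and 31.2 against 25.4, 24.9 and 20.6, while Irf9 and Trim30a were lower (log2 −0.37 and −0.56).

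A few genes were clearly expressed with the fusion first and at or near 0 with the receptor first. Akr1c12, an aldo-keto reductase (chromosome 13, 4268176 to 4279433, minus strand), was at 35.8, 32.8 and 31.97 CPM with the fusion first and at 0.662, 0.472 and 0.849 with the receptor first (log2 5.65, SE 0.195, adjusted p = 1.74e-10), and its mean was under 1 CPM in every reference group. Its paralog Akr1c13 was at 61.9, 50.99 and 50.9 against 13.1, 18.9 and 17.3 CPM and, unlike it, was expressed in EMPTY (13.3 ± 3.59). Ccn3, a matricellular protein, was at 21.4, 20.2 and 19.1 CPM with the fusion first and had no counts in any other group, which makes it at least 112-fold higher than with the receptor first, taking 3 counts per library as the floor. Kcnk5, a potassium channel, was at 9.199, 8.91 and 8.52 CPM against no counts with the receptor first (at least 49.4-fold higher), with 1.31 ± 0.164 in RUNX1-ETO_ONLY. These floors cover counting error only.

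In some general functions few genes passed the edgeR test between the orders, where 7.22% of all genes were higher and 11.1% lower. Of 25 oxidative phosphorylation genes 0 passed the edgeR test, with a median of −0.04, and 1 had an unadjusted p under 0.05. DESeq2 called 1 higher, limma-voom called 3 higher and 4 lower, and omitting the 4 libraries poor in long transcripts gave 2 higher and 7 lower. Of 25 proteasome and chaperone genes 1 was higher (4.0%) and 0 lower. Of 29 PI3K, AKT and mTOR pathway genes 2 were higher and 2 lower (6.9% each), with 1 higher without replicate 2 or 3 of either order. Of 15 BCL2 family genes 1 was higher and 1 lower (6.67% each). The higher shares of the PI3K and BCL2 lists were thus near that of all genes. These low counts depended on the fit too. Without the 4 libraries poor in long transcripts 9 PI3K, AKT and mTOR genes were higher and 8 lower, and 2 and 5 BCL2 family genes. By limma-voom the counts were 5 and 5, and 3 and 4, and with library sizes alone 3 BCL2 family genes were higher and 0 lower. The BCL2 family count of higher genes was 2 without replicate 1 of either order, and that of lower genes 2 without CSF3R_FIRST replicate 3. Gapdh and Aldoa of glycolysis were not past the test (log2 −0.23 and −0.34), while Hk1, hexokinase 1, and the glucose transporter Slc2a3 were lower with the fusion first (log2 −0.37 and −0.52). Of 25 glycolysis and hypoxia genes 5 were lower (20.0%, above the share of all genes) and 0 higher, and 19 were lower when the 4 libraries poor in long transcripts were left out.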

How the data were processed

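The authors deposited raw counts per gene symbol, 1 column a library, from strand-specific mRNA libraries sequenced on a BGI DNBSEQ instrument per the labels' protocols. Trimmomatic, STAR, DESeq2 and the build mm10 appear, unversioned, among tools listed per the submitters' processing notes. For the counting step no program, annotation, strand setting or rule for shared reads was found there, so paralogs and antisense partners are less certain. All 15 libraries (17003189 to 18173954 counts) were used. The entry naming no gene (0.0179% to 0.0305% of counts) was left out.

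edgeR 4.0.16 under R 4.3.3 kept 13123 genes by its default filter, with TMM scaling, 5 group means and 10 residual degrees of freedom. Robust quasi-likelihood F tests, two-sided, gave 8 comparisons, each adjusted by Benjamini-Hochberg over all genes at 0.05. SE is on the log2 scale, log2 CPM has a prior count of 2, and ± is SD over 3 libraries. The procedure was tested on simulated data. Same-numbered libraries of EMPTY and CSF3R_FIRST deviated together (correlations 0.165, 0.136 and 0.37), as did those of EMPTY and RUNX1-ETO_ONLY (0.284, 0.283 and 0.455). Some differently numbered libraries did too, such as CSF3R_FIRST replicate 1 with EMPTY replicate 2 (0.219) and RUNX1-ETO_FIRST replicate 1 with EMPTY replicate 3 (0.376). Others went the opposite way, such as CSF3R_FIRST replicate 3 with EMPTY replicate 1 (−0.244). The values 0.37, 0.376 and 0.455 joined libraries low in long transcripts. No label says that a number marks a shared batch, and the fit had no block. Alternatives were other scalings, no filter, DESeq2 1.42.0, limma-voom 3.58.1 with sample weights, the double-allele groups alone, a replicate block, and fits without single or 4 libraries.

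The groups, 57 gene lists (1216 tested genes) and named-gene rule were chosen with earlier results of these data known. Runx1, Runx1t1 and Csf3r were named first. Otherwise a gene was eligible if called with the same sign with all libraries, without each double-allele library and with the block, moving under 1.5-fold, with at least 5 CPM in one order and no overlap between the libraries, unnamed models left out. Up to 5 eligible genes a list, 2 abundant genes not past the test, and 6 for each pair of places with at least 10 genes qualified, 374 in all. Positions are from GENCODE M21 on mm10. Of the tested genes, 9785 had a promoter in the RefSeq table, matched by symbol. The lists of genes share members. A few genes that met the rule are not reported here.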

Additional observations from a re-analysis of the deposited data

How the results depend on the processing

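The order difference of 37 named genes changed sign under an alternative, none of them past the test in either fit. With library sizes alone the balance of the order comparison turned, to 1842 higher and 1131 lower, as did that of some lists. The order comparison called 2407 genes, 1718 to 2139 without single libraries, 4269 by limma-voom with sample weights (1887 higher, 2382 lower) and 4449 when the 4 libraries poor in long transcripts were left out (1793 and 2656). Higher genes numbered 510 to 814 and lower genes 1141 to 1325 without single libraries; DESeq2 called 984 and 1776. Labels share replicate numbers, but same-numbered libraries of the orders correlated at −0.16, 0.082 and −0.13 in their deviations, so the numbers were not taken to pair them; with the replicate block 1015 genes were higher and 1526 lower. With those of EMPTY, same-numbered libraries all correlated positively for CSF3R_FIRST but not for RUNX1-ETO_FIRST. Those of RUNX1-ETO_ONLY did so too, as did some differently numbered libraries. Against EMPTY the block called 7249 genes in CSF3R_FIRST and 5926 in RUNX1-ETO_FIRST. Of the 374 named genes 13 calls in all were lost under an alternative, 6 of them for Runx1 and 6 with library sizes alone. Apart from Runx1, Runx1t1 and Csf3r, called genes were named only if they stayed called without each double-allele library and with the block. Those fits could therefore not lose their calls, and only the other alternatives could. Of placements, with a margin narrower than 1.5-fold the higher genes numbered 21 near EMPTY, 29 near RUNX1-ETO_ONLY and 57 between in RUNX1-ETO_FIRST, and 22 near EMPTY, 26 near CSF3R_ONLY and 51 between in CSF3R_FIRST. The lower genes numbered 55 near RUNX1-ETO_ONLY and 45 near CSF3R_ONLY in RUNX1-ETO_FIRST, and 14 near EMPTY and 21 near CSF3R_ONLY in CSF3R_FIRST. Within 2-fold, the higher genes numbered 15 between and 6 below all in RUNX1-ETO_FIRST, and 20 near RUNX1-ETO_ONLY, 16 between, 4 above all and 30 below all in CSF3R_FIRST. The lower genes numbered 130 near RUNX1-ETO_ONLY, 108 near CSF3R_ONLY, 38 between and 7 below all in RUNX1-ETO_FIRST, and 89 near CSF3R_ONLY, 32 between and 1 below all in CSF3R_FIRST. These shifts follow from the margin itself. With library sizes alone 50 higher genes were near EMPTY and 27 near CSF3R_ONLY in RUNX1-ETO_FIRST, and 75 below all in CSF3R_FIRST; the count of lower genes below all in CSF3R_FIRST, 2, was 1 to 4 without single libraries. With library sizes alone, added after seeing the data, the distances to EMPTY were 1.231 and 1.409. At these depths, genes of a few CPM have wide errors, and CPM depends on the scaling.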

Other observations

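Iron, heme and lipid genes differed singly. Tfrc, the transferrin receptor, was at 152, 165 and 153 CPM with the fusion first and 85.2, 86.6 and 89.5 with the receptor first (log2 0.85, adjusted p = 4.52e-05), both below EMPTY (293 ± 40.9). The iron storage gene Ftl1 went the other way, at 640.2, 553 and 541 against 903, 820.5 and 933 CPM, as did Hmox1, heme oxygenase, at 88.8, 70.8 and 82.7 against 119, 126 and 130.4. Of the 19 heme and iron genes 3 were higher and 4 lower, and 1 was higher without replicate 2 or 3 of RUNX1-ETO_FIRST or replicate 3 of CSF3R_FIRST. Of 22 cholesterol synthesis and uptake genes 4 were lower, among them Mvk of the mevalonate pathway (log2 −0.57). Without replicate 2 or 3 of either order 2 were lower, with library sizes alone 1, by limma-voom 10, and without the 4 libraries poor in long transcripts 13. Far2, which makes fatty alcohols, was at 50.6, 51.7 and 54.02 against 20.1, 15.8 and 17.4 CPM, below EMPTY (163 ± 10.2) in both.

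WNT, Notch, TGF-beta and Hedgehog genes, taken as 1 list, were called in both directions. Of 32, 7 were higher with the fusion first (21.9%) and 6 lower (18.8%), against 7.22% and 11.1% of all genes. Without the 4 libraries poor in long transcripts 11 were higher and 8 lower. The receptor Notch3 was higher with the fusion first (5.78, 5.5 and 7.22 against 1.93, 1.59 and 1.03 CPM), as was the ligand Jag2 (7.24, 8.53 and 7.22 against 3.13, 3.13 and 2.85). The target Hes1 was lower (7.24, 6.99 and 5.81 against 15.1, 17.01 and 17.6). Tgfbi, a matrix protein named for its response to TGF-beta, was at 69.4, 70.6 and 68.8 against 246, 244 and 223 CPM, with 12.6 ± 1.254 in EMPTY, 5.695 ± 0.601 with the fusion alone and 144 ± 2.202 with the receptor alone. Stem and progenitor genes also went both ways, 5 of 25 higher and 5 lower (20.0% each, against 7.22% and 11.1% of all genes). Without RUNX1-ETO_FIRST replicate 3 or CSF3R_FIRST replicate 2 the counts were 3 and 4. Sox4 was higher with the fusion first (111, 95.3 and 97.95 against 56.3, 51.7 and 48.1 CPM), as was Lmo2 (94.5, 86.9 and 86.2 against 53.7, 51.8 and 59.3). Kit and Ly6a of the same list, given above, were lower. Cd34, a surface marker of progenitors, was not past the test at 860.5, 801 and 810.3 against 823, 761 and 792, with 1156 ± 37.3 CPM with the fusion alone and 236 ± 14.4 in EMPTY. The groups did not overlap for the genes called here, which the naming rule required.

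Over the 56 gene lists with at least 5 tested members, RUNX1-ETO_FIRST was nearest by root mean square to RUNX1-ETO_ONLY in 41, to CSF3R_ONLY in 13 and to EMPTY in 2. CSF3R_FIRST was nearest to RUNX1-ETO_ONLY in 26, to CSF3R_ONLY in 26 and to EMPTY in 4. Both orders were nearest to the fusion alone in 26 lists and to the receptor alone in 13, and in 11 lists the fusion-first group was nearest to the fusion alone and the receptor-first group to the receptor alone. The lists share members and libraries, so these counts describe them only.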
